A study of Homo sapiens with 4 samples.

Results

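The genes described here encode the enzymes and accessory proteins that copy DNA at the replication fork. Of 60605 genes in the deposited files, 40 were chosen by name: 12 subunits of the replicative polymerases and primase, 6 of replication factor C (RFC) and the sliding clamp PCNA, 5 of GINS and CDC45, 3 of replication protein A (RPA), 5 fork protection proteins, 6 origin firing factors and 3 enzymes of flap processing. Each of the 40 was among the 22185 genes tested. Their messenger RNA was measured in OVCAR3, an established line of high-grade serous ovarian carcinoma, to ask how gene expression differed after DNA damage by etoposide. The etoposide group had 2 libraries, from cells given 1.7 µM etoposide, an inhibitor of topoisomerase II, for 24 h. The DMSO group had 2 libraries, from cells given the solvent alone for 24 h. Cells of both groups had first been held with 100 ng/mL nocodazole, which blocks mitosis, for 16 h, washed and released into fresh medium for 3 h, so that neither group was an untreated culture. The labels call the libraries of a group biological replicates and do not say how the cultures were kept apart. The p-values given here measure only the spread between these libraries.

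During S phase, GINS and CDC45 join the MCM ring to form the replicative helicase, and primase with polymerase alpha lays the primers. RFC loads PCNA, polymerase epsilon copies the leading strand and polymerase delta the lagging strand, RPA coats the exposed single strands, and flap enzymes and a ligase join the Okazaki fragments. Many of these genes are transcribed in late G1 and S phase under E2F factors, and several of the proteins also serve the checkpoint that answers stalled forks. Etoposide traps topoisomerase II on cleaved DNA, and such breaks can activate the same checkpoint.

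The upstream sequences of members were searched for the letters that E2F factors bind, since the members share S-phase transcription as background. The RefSeq promoter table (GRCh38.p14) held 32 of the 40 members and lacked RPA2, RPA3, DNA2, POLD3, DONSON, RECQL4, GINS4 and MTBP. The 250 bases before the RefSeq start were read on both strands for the word TTCCCGC, its variants TTCGCGC and TTGCCGC, and the variant TTGGCGC, with overlapping matches counted apart. Of the 32 promoters, 13 (40.6%) held at least 1 of these words, as did 16.9% of 12321 promoters of genes tested and 10.9% of all 35116 promoters in the table. The 5 promoters with 2 matches are printed 5′ to 3′ on the gene's strand, with the matched letters in capitals. They are POLA1 (chrX:24693668-24693917, plus strand), the catalytic subunit of polymerase alpha, POLE (chr12:132687343-132687592, minus strand), that of polymerase epsilon, TIPIN (chr15:66356686-66356935, minus strand) of the fork protection complex, TOPBP1 (chr3:133661942-133662191, minus strand), an origin firing scaffold, and CDC7 (chr1:91500601-91500850, plus strand), an origin firing kinase.
POLA1: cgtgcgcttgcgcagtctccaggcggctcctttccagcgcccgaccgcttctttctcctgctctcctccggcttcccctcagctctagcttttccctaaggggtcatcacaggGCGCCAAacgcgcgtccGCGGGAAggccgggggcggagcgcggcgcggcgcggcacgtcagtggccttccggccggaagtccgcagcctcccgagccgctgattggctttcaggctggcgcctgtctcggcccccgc
POLE: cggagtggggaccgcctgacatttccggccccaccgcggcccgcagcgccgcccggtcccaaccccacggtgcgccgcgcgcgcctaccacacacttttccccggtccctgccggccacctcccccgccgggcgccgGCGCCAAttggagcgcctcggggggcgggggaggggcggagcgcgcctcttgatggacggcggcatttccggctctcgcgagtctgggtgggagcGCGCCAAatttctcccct
TIPIN: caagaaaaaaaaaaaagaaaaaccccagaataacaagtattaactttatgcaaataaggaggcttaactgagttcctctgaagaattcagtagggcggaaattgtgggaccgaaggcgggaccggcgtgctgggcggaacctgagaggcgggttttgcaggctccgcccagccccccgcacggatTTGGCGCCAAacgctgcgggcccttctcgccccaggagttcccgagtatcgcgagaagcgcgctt
TOPBP1: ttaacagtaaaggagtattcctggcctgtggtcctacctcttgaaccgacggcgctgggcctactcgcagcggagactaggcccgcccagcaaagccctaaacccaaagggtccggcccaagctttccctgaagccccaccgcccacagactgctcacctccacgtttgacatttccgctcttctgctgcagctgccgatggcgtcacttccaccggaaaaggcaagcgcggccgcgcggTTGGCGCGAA
CDC7: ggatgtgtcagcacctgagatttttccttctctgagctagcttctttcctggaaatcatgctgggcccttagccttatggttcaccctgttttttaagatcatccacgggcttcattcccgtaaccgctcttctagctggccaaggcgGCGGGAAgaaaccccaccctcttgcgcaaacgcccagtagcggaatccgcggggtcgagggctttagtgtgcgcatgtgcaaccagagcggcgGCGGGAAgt
In TIPIN and TOPBP1 both matches overlapped within 10 bases, and in POLE and CDC7 they were copies of the same word on the same strand. The other 8 promoters with a match belonged to POLA2, PRIM1, POLE4, RFC3, RFC4, GINS2, RPA1 and LIG1. The CCAAT word stood in 16 of the 32 promoters (50%), against 34.6% of the promoters of genes tested, and the CHR word TTTGAA, known from genes of G2 and M phase, in 1 (3.12%), against 8.26%. A match describes the letters in the window and does not show that a factor bound there.

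Most replication genes had more messenger RNA in both etoposide libraries than in both DMSO libraries, by small amounts. Levels are given as FPKM (fragments mapped to a transcript relative to its length and to the depth of the library), summed over the transcripts of a gene. The summed FPKM of the 40 members were 768 and 767 in the etoposide libraries, against 637 and 651 in the DMSO libraries. The groups did not overlap, with both etoposide libraries higher, for 34 of the 40 members (85%), where 28.9% of all genes tested had the same order. For 0 members were both etoposide libraries lower, against 19.0% of all genes tested. The log2 fold changes of the members had a median of 0.32, a fold of 1.25, and reached from −0.08 to 0.64, while the median over all genes tested was 0.04. They were above 0 in 36 members, as in 56.2% of all genes tested, and 26 members lay above the 75th percentile of all genes (0.21). A 1.5-fold difference was reached by 2 members, CLSPN and WDHD1, and by 3.78% of all genes tested. In RNA of whole cultures, more cells in S phase and more of these messengers per cell cannot be told apart.

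Each gene was tested with limma on log2(FPKM + 0.1), with Benjamini-Hochberg adjustment over the 22185 genes, and a log2 fold change is the etoposide minus the DMSO mean on that scale, which understates the change of genes at low levels. No member passed an adjusted p of 0.05, and the lowest adjusted p of a member was 0.27, that of PCNA. Of all genes tested, 0 (0%) passed in either direction with limma on FPKM. The paper used DESeq2 on gene counts from these groups and did report genes at an adjusted p under 0.05. Its calls were not compared with the values here. At an unadjusted p under 0.05, 24 members (60%) were higher and 0 were lower, against 7.06% and 4.85% of all genes tested. An exact two-sided permutation test of 2 against 2 libraries cannot go below a p of 0.333. The standard errors of the members' log2 fold changes had a median of 0.10 and ranged from 0.07 to 0.21. One library decided the calls: without DMSO replicate 2, 16 members passed, all of them higher, as did 6.06% of all genes tested (1344 genes), and 0 members were lower, against 2.66% (590 genes). Those 16 were POLA1, POLD3, POLE, RFC1, RFC3, PCNA, GINS4, TIMELESS, TIPIN, CLSPN, WDHD1, DONSON, TOPBP1, CDC7, FEN1 and DNA2, with adjusted p between 0.033 and 0.048 by limma and the lone DMSO library assumed to vary like the etoposide group. Without DMSO replicate 1, 0 members passed, while 0.0135% of all genes tested passed as higher and 0.00902% as lower.

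**Figure D1:**
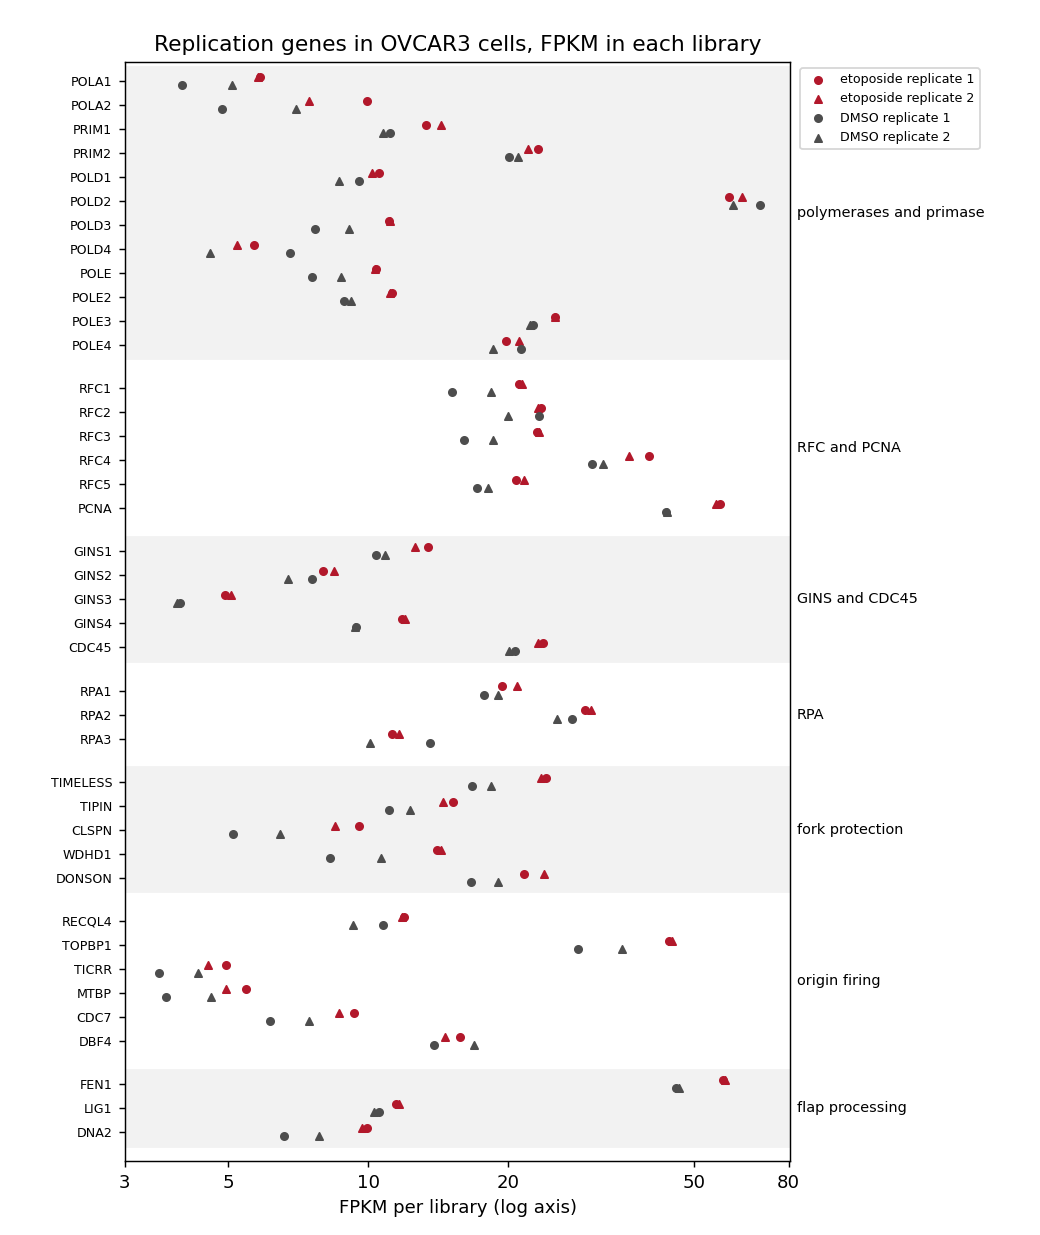
FPKM of each of the 40 members (horizontal log axis) in etoposide replicates (red) and DMSO replicates (grey), circles for replicate 1 and triangles for replicate 2, grouped by complex. Red points lie right of both grey points in 34 members and overlap with them in POLD2, POLD4, POLE4, RFC2, RPA3 and DBF4.

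Among the 12 polymerase and primase genes, the primase gene PRIM1 and the accessory subunits POLD3 and POLE2 had the smallest p-values, while the small and regulatory subunits of polymerase delta overlapped between the groups. PRIM1, the catalytic subunit of primase, had 13.3 and 14.4 FPKM in the etoposide libraries, against 11.1 and 10.7 in the DMSO libraries. Both etoposide libraries were higher (log2 fold change 0.33 ± 0.09 SE, adjusted p = 0.34 by limma). POLD3, an accessory subunit of polymerase delta, had 11.1 FPKM in either etoposide library, against 7.69 and 9.10 in the DMSO libraries, and POLE2, the second subunit of polymerase epsilon, had 11.2 and 11.1 with etoposide, against 8.89 and 9.19 with DMSO. The groups of both genes were apart, with log2 fold changes of 0.40 ± 0.11 and 0.30 ± 0.09 (SE) and adjusted p of 0.34 each by limma. PRIM1 shares 4.87% of its exon bases with NACA on the same strand, a gene at 338 FPKM, and fragments there cannot be assigned to one of them by position.

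POLD2, the regulatory subunit of polymerase delta and the member with the highest mean level (63.3 FPKM), had 59.5 and 63.6 FPKM in the etoposide libraries, against 69.6 and 60.7 in the DMSO libraries. DMSO replicate 1 was the highest of the 4 libraries and the groups overlapped (−0.08 ± 0.09, adjusted p = 0.73 by limma). Without that library the log2 difference was 0.02. POLD4, the smallest subunit of polymerase delta, had 5.67 and 5.24 FPKM with etoposide, against 6.79 and 4.58 with DMSO. The DMSO libraries lay on either side of both etoposide libraries, and the log2 difference of −0.03 ± 0.19 became 0.25 without DMSO replicate 1 and 0.03 with TPM. POLE4, a histone-fold subunit of polymerase epsilon, had 19.7 and 21.1 FPKM with etoposide, against 21.3 and 18.6 with DMSO. Its groups also overlapped (0.04 ± 0.10), and the sign turned without DMSO replicate 2 (−0.06). The other 6 genes of the group, POLA1, POLA2, PRIM2, POLD1, POLE and POLE3, were higher in both etoposide libraries, with log2 fold changes from 0.14 to 0.56 and adjusted p from 0.36 to 0.50 by limma. The highest of these was POLA2, the second subunit of polymerase alpha, named here after its values were seen, with 9.95 and 7.47 FPKM in the etoposide libraries, against 4.85 and 6.99 in the DMSO libraries. It also had the widest standard error of all members (0.21), and 36.1% of its exon bases are shared with an unnamed gene on the same strand at 3.18 FPKM. POLA1 and POLE, given because their promoters are printed above, had 5.87 and 5.81 FPKM and 10.4 and 10.4 FPKM in the etoposide libraries, against 3.97 and 5.10 and 7.57 and 8.75 in the DMSO libraries. In both genes the etoposide libraries lay close together and the DMSO libraries apart.

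The clamp and its loader were higher in the etoposide libraries as a group. The summed FPKM of RFC1 to RFC5 and PCNA averaged 184 ± 2.48 in etoposide and 148 ± 3.76 in DMSO libraries (SD, n = 2 each). PCNA (chr20:5114953-5126626, minus strand), the ring that holds the polymerases on DNA, had 56.8 and 55.9 FPKM in the etoposide libraries, against 43.6 and 43.8 in the DMSO libraries. The replicates of either group were nearly equal and the groups were apart, by 0.37 ± 0.07 on the log2 scale (adjusted p = 0.27 by limma). Its value was 0.36 without DMSO replicate 1 and 0.33 after correction for transcript length and GC content. Its leading transcript, which encodes the protein, had 46.4 and 46.8 FPKM with etoposide, against 35.8 and 36.1 with DMSO.

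RFC3, one of the small ATPase subunits of the loader, had 23.0 and 23.3 FPKM in the etoposide libraries, against 16.0 and 18.5 in the DMSO libraries. This was the widest log2 fold change of the group, 0.42 ± 0.10 (adjusted p = 0.30 by limma). RFC4, another small subunit, had 40.05 and 36.39 FPKM with etoposide, against 30.20 and 31.95 with DMSO, and both etoposide libraries were higher (0.30 ± 0.08, adjusted p = 0.34). RFC2, also a small subunit, had 23.5 and 23.2 FPKM with etoposide, against 23.3 and 19.9 with DMSO. DMSO replicate 1 lay between the etoposide libraries, so that the groups overlapped (0.12 ± 0.10). The large subunit RFC1 and the small subunit RFC5 were higher in both etoposide libraries, with log2 fold changes of 0.35 and 0.27. RFC5 shares 5.72% of its exon bases with WSB2 on the opposite strand (23.4 FPKM), and the deposited values were made without a strand setting.

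All 5 genes of GINS and CDC45, the helicase partners of the MCM ring, were higher in both etoposide libraries, within a narrow range of log2 fold changes from 0.20 to 0.35. GINS4 had 11.84 and 11.99 FPKM in the etoposide libraries, against 9.41 and 9.35 in the DMSO libraries. The replicates of each group nearly coincided (0.34 ± 0.08, adjusted p = 0.31 by limma). GINS3 had 4.93 and 5.07 FPKM with etoposide, against 3.93 and 3.88 with DMSO, and GINS1 had 13.5 and 12.6 with etoposide, against 10.4 and 10.9 with DMSO. The groups of both were apart, by 0.35 ± 0.10 and 0.29 ± 0.09, with adjusted p of 0.34 and 0.36. GINS2 and CDC45 both differed by 0.20 on the log2 scale. The summed FPKM of the 5 genes averaged 61.6 ± 0.456 in etoposide and 51.4 ± 0.734 in DMSO libraries (SD, n = 2 each), and the median log2 fold change of the group was 0.29 with all libraries, as without DMSO replicate 1.

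The RPA trimer, which coats single-stranded DNA, had the lowest median of the 7 groups (0.13), and 0 of its genes had an unadjusted p under 0.05. RPA1, the large subunit, had 19.3 and 20.9 FPKM in the etoposide libraries, against 17.7 and 19.0 in the DMSO libraries. RPA2, the middle subunit, had 29.2 and 30.2 FPKM with etoposide, against 27.5 and 25.4 with DMSO. Both were higher in each etoposide library, by 0.13 ± 0.09 and 0.17 ± 0.08 on the log2 scale, with adjusted p of 0.55 and 0.45 by limma. RPA3, the small subunit, had 11.3 and 11.7 FPKM with etoposide, against 13.6 and 10.1 with DMSO. The DMSO libraries lay on either side of the etoposide libraries (−0.03 ± 0.15), and the sign turned with TPM (0.03), with voom on estimated fragments (0.19) and without DMSO replicate 1 (0.18). A transcript of RPA3 seen in that library alone, ENST00000396682, was assigned 5.57 FPKM there and is listed at 0 in the other 3 libraries. The leading RPA3 transcript had 10.3 FPKM in each etoposide library, against 7.11 and 8.68 in the DMSO libraries, so that the transcript and the gene differed in order. After the length and GC correction the median of the 3 genes was 0.04, and without etoposide replicate 2 it was 0.07.

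The fork protection genes had the highest median of the 7 groups (0.44), and all 5 were higher in both etoposide libraries with an unadjusted p under 0.05. CLSPN (chr1:35720218-35769978, minus strand) encodes claspin, the adaptor through which ATR activates CHK1. It had 9.54 and 8.48 FPKM in the etoposide libraries, against 5.12 and 6.47 in the DMSO libraries, the widest log2 fold change of all 40 members (0.64 ± 0.14, adjusted p = 0.30 by limma). WDHD1 (chr14:54938949-55027105, minus strand) encodes AND-1, which ties polymerase alpha to the helicase. It had 14.1 and 14.3 FPKM with etoposide, against 8.28 and 10.6 with DMSO (0.59 ± 0.13, adjusted p = 0.30). TIMELESS (chr12:56416363-56449426, minus strand), the partner of TIPIN at the fork, had 24.2 and 23.5 FPKM with etoposide, against 16.7 and 18.3 with DMSO (0.44 ± 0.09, adjusted p = 0.27). In each of the 3 genes both etoposide libraries lay above both DMSO libraries, and DMSO replicate 1 was the lowest of the 4. Without that library their log2 fold changes were 0.47, 0.41 and 0.37, and after the length and GC correction 0.46, 0.36 and 0.39. TIPIN and DONSON differed by 0.34 and 0.35, and DONSON, a fork and helicase assembly factor, shares 8.74% of its exon bases with SON on the opposite strand (70.2 FPKM). The summed FPKM of the group were 84.6 in either etoposide library, against 57.9 and 66.8 in the DMSO libraries.

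**Figure D2:**
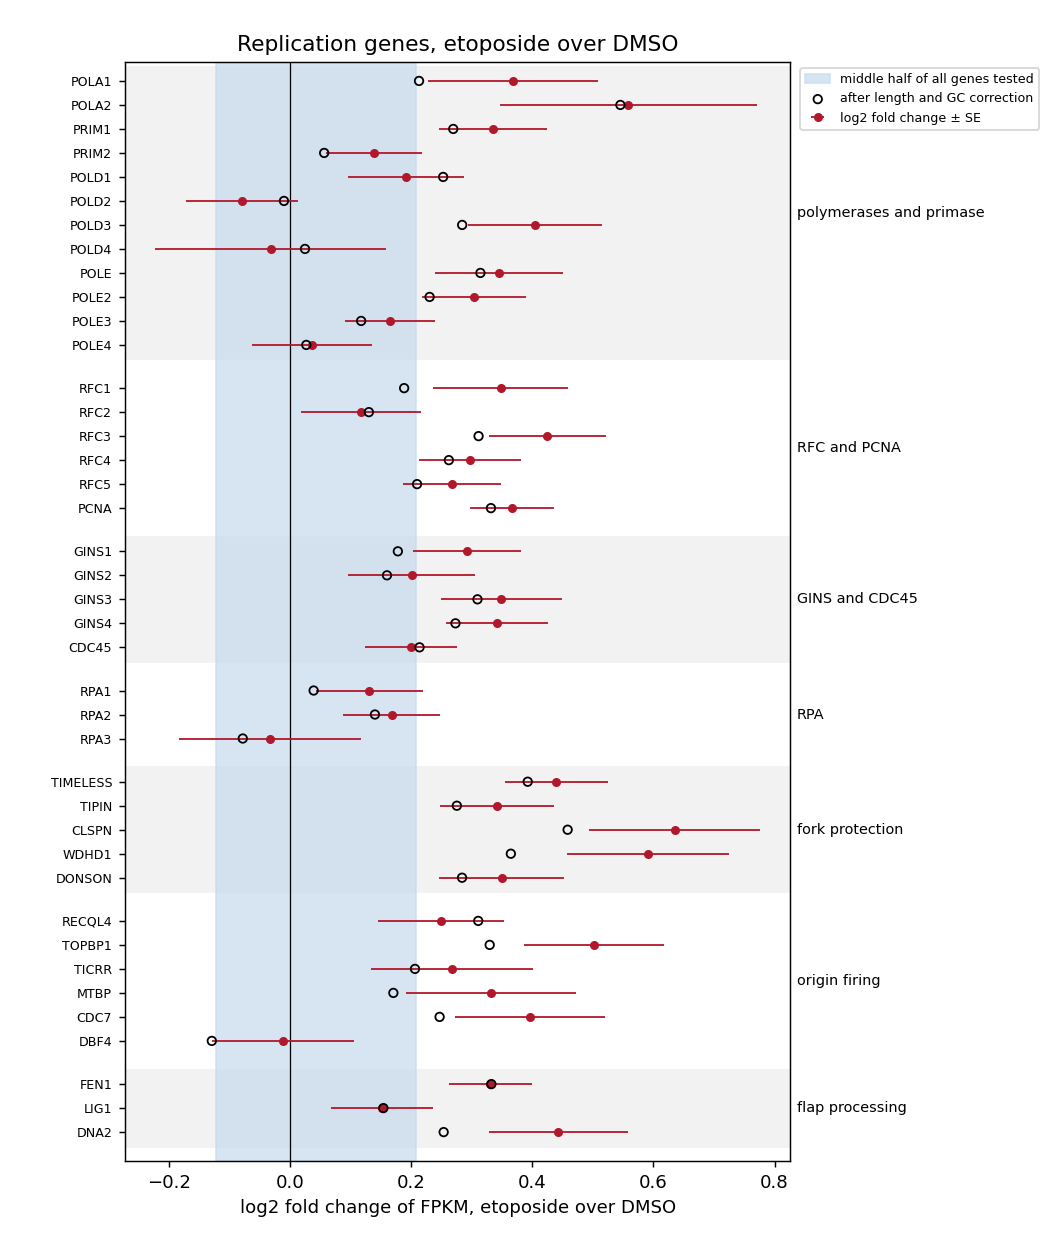
Log2 fold change of FPKM, etoposide over DMSO (horizontal axis), for each member with its standard error (red) and after correction for transcript length and GC content (open circles), with the range between the 25th and 75th percentiles of all genes tested shaded. CLSPN (0.64) and WDHD1 (0.59) lie farthest right, the open circles lie left of the red points in most of the genes with the widest differences, and POLD2, POLD4, RPA3 and DBF4 lie just below 0.

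The 6 origin firing factors were less uniform, with the kinase CDC7 higher in both etoposide libraries and its partner DBF4 overlapping between the groups. TOPBP1 (chr3:133598175-133662380, minus strand), a scaffold that also activates ATR, had 44.3 and 44.9 FPKM in the etoposide libraries, against 28.2 and 35.1 in the DMSO libraries. Both etoposide libraries were higher and the DMSO libraries lay far apart (0.50 ± 0.12, adjusted p = 0.30 by limma), and without DMSO replicate 1 the log2 fold change was 0.35. CDC7, the kinase that licensed origins need to fire, had 9.30 and 8.65 FPKM with etoposide, against 6.17 and 7.48 with DMSO (0.40 ± 0.12, adjusted p = 0.37). DBF4, the subunit that activates CDC7, had 15.7 and 14.6 FPKM with etoposide, against 13.9 and 16.8 with DMSO. The etoposide libraries of DBF4 lay between the DMSO libraries (−0.01 ± 0.12, adjusted p = 0.98), and DMSO replicate 2 was the highest. Its log2 difference was −0.15 without DMSO replicate 1, 0.13 without DMSO replicate 2 and 0.06 with TPM. The ratio of CDC7 to DBF4 FPKM was 0.591 in either etoposide library, against 0.445 and 0.444 in the DMSO libraries, 1 of 5 ratios between members that were computed after the values were seen and carry no test. The others, POLD3 over POLD2, RFC3 over RFC2, POLA1 over PRIM2 and CLSPN over PCNA, were also higher in both etoposide libraries. The leading DBF4 transcript is annotated as a target of nonsense-mediated decay, and had 8.55 and 6.97 FPKM with etoposide, against 8.18 and 9.61 with DMSO. Transcripts annotated as coding held 21.6% and 43.7% of DBF4 FPKM with etoposide, against 36.7% and 38.8% with DMSO. RECQL4, a helicase of origin firing, had 11.9 and 11.8 FPKM with etoposide, against 10.8 and 9.28 with DMSO, and its groups were apart (0.25 ± 0.10, adjusted p = 0.42). The initiation factor TICRR and its partner MTBP differed by 0.27 and 0.33. Without DMSO replicate 2 the median of the group was 0.45, and without DMSO replicate 1 it was 0.22, against 0.30 with all libraries.

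The 3 enzymes that process Okazaki fragments were higher in both etoposide libraries. FEN1 (chr11:61792911-61797238, plus strand), the flap endonuclease, had 57.9 and 58.3 FPKM in the etoposide libraries, against 45.8 and 46.6 in the DMSO libraries. As for PCNA, the replicates of each group were close and the groups apart (0.33 ± 0.07, adjusted p = 0.29 by limma), and the value after the length and GC correction was also 0.33. DNA2, a nuclease and helicase that trims long flaps, had 9.96 and 9.68 FPKM with etoposide, against 6.59 and 7.85 with DMSO (0.44 ± 0.11, adjusted p = 0.33). LIG1, the ligase that seals the nicks, had 11.5 and 11.6 FPKM with etoposide, against 10.5 and 10.3 with DMSO. LIG1 showed the smallest difference of the 3 (0.15 ± 0.08, adjusted p = 0.49). Its leading transcript, annotated as a target of nonsense-mediated decay, had 2.52 and 3.12 FPKM in the etoposide libraries, against 6.08 and 1.52 in the DMSO libraries. The etoposide libraries lay between the DMSO libraries (−0.12 ± 0.75). The next transcript, ENST00000594759, of the same annotation, had 5.17 and 3.30 with etoposide, against 0.739 and 4.01 with DMSO, and also overlapped (1.19 ± 0.90). The split of LIG1 fragments between transcripts thus varied more between the DMSO replicates than the gene's level did.

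At the level of single transcripts, 207 of the 366 annotated transcripts of members were tested among 71340 transcripts, and 0 passed an adjusted p of 0.05 by limma, as did 0% of all transcripts. At an unadjusted p under 0.05, 9 of the 207 were higher and 2 lower, against 2.95% and 2.83% of all transcripts tested. The count of higher transcripts was little above that share and the count of lower ones below it. The transcripts named next are therefore described by their values only. The leading transcripts of PCNA, FEN1, RFC3 and CLSPN were among the 9. FEN1's had 57.6 and 57.9 FPKM in the etoposide libraries, against 45.2 and 46.2 in the DMSO libraries, and CLSPN's had 6.14 and 7.02, against 4.40 and 4.68. A transcript of DONSON annotated as a target of nonsense-mediated decay, ENST00000442660, had 1.19 and 3.93 FPKM with etoposide, against 0.219 and 0.229 with DMSO. Its etoposide libraries were both higher but unlike each other (adjusted p = 0.70). The 2 lower transcripts belonged to polymerase delta. ENST00000223361 of POLD2 had 13.1 and 10.1 FPKM in the etoposide libraries, against 22.7 and 18.6 in the DMSO libraries (adjusted p = 0.72), and ENST00000312419, the leading transcript of POLD4, had 0.911 and 0.976, against 1.65 and 1.62 (adjusted p = 0.83). The leading transcript was annotated as coding in 38 of the 40 members and held over 50% of the gene's FPKM in 29.

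The DMSO libraries were less alike than the etoposide libraries, and the difference between them followed transcript length. The absolute log2 difference between replicates had a median over the members of 0.05 in etoposide and 0.19 in DMSO, and was larger in DMSO for 32 of the 40. DMSO replicate 1 was the lowest of the 4 libraries in 25 members and DMSO replicate 2 in 14. In 4 of the 6 members whose groups overlapped, POLD2, POLD4, POLE4 and RPA3, DMSO replicate 1 was the highest library. Across the 40 members the log2 difference of DMSO replicate 2 over replicate 1 had a Spearman correlation of 0.63 with the length of the leading transcript and of −0.55 with its GC content. For etoposide over DMSO the correlations were 0.49 and −0.39, and for etoposide replicate 2 over replicate 1 −0.16 and 0.09. Over all genes tested, etoposide over DMSO gave 0.19 with length and DMSO replicate 2 over replicate 1 gave 0.31. These correlations describe genes that share 4 libraries and were given no test. When DMSO replicate 1 was dropped, the members' fold change correlated with length at 0.16. Without that library 39 of the 40 members were above 0, all but DBF4, with a median of 0.26, where 56.6% of all genes tested were above 0. After removal of a loess trend on length and GC content, 37 were above 0, against 49.6% of all genes tested, and the median was 0.24.

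**Figure D3:**
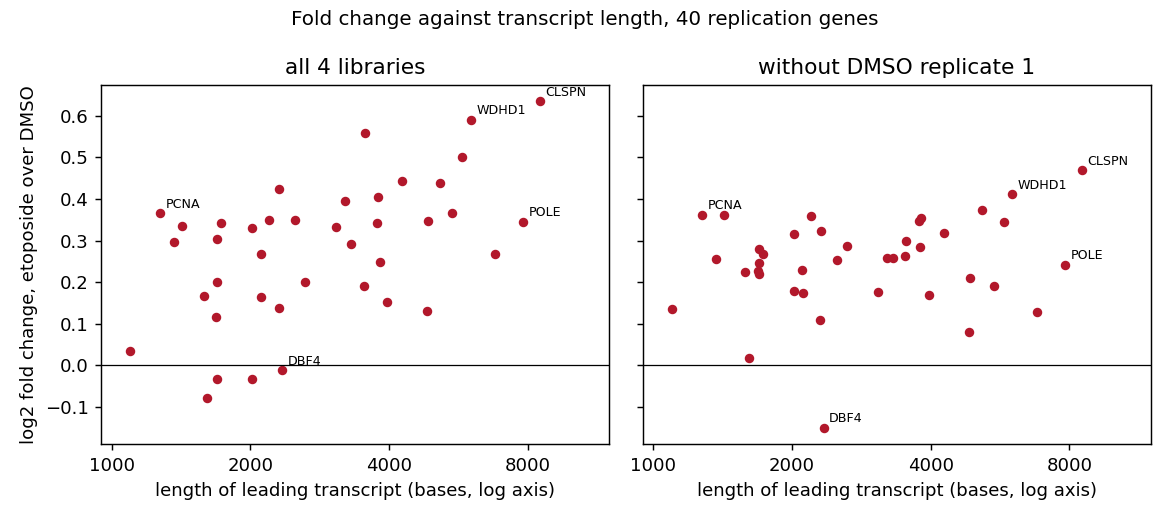
Log2 fold change of etoposide over DMSO (vertical axis) against the length of the leading transcript in bases (horizontal log axis) for the 40 members, with all 4 libraries (left) and without DMSO replicate 1 (right). With all libraries the long CLSPN and WDHD1 stand highest (0.64 and 0.59) and the Spearman correlation is 0.49, and without DMSO replicate 1 they stand at 0.47 and 0.41 and it is 0.16.

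The order of the complexes was in part kept across these settings. Fork protection had the highest median with all libraries (0.44), without each library in turn (0.37 to 0.51) and after the length and GC correction (0.36). RPA had the lowest under each of these 6 settings, from 0.04 to 0.19. With leading transcripts, outside these 6, RPA (0.22) stood above polymerases and primase (0.19). The other 5 groups, with medians from 0.25 to 0.33 with all libraries, changed places between settings. The members with an E2F word in the promoter had a median log2 fold change of 0.34 (13 genes, from 0.04 to 0.56) and those without one 0.27 (19 genes, from −0.08 to 0.64). The ranges overlapped over most of the members' values, and the difference between the medians was not tested. Genes counted as without a word lacked these letters in the 250 bases before the RefSeq start. Other forms of the E2F site were not searched.

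**Figure D4:**
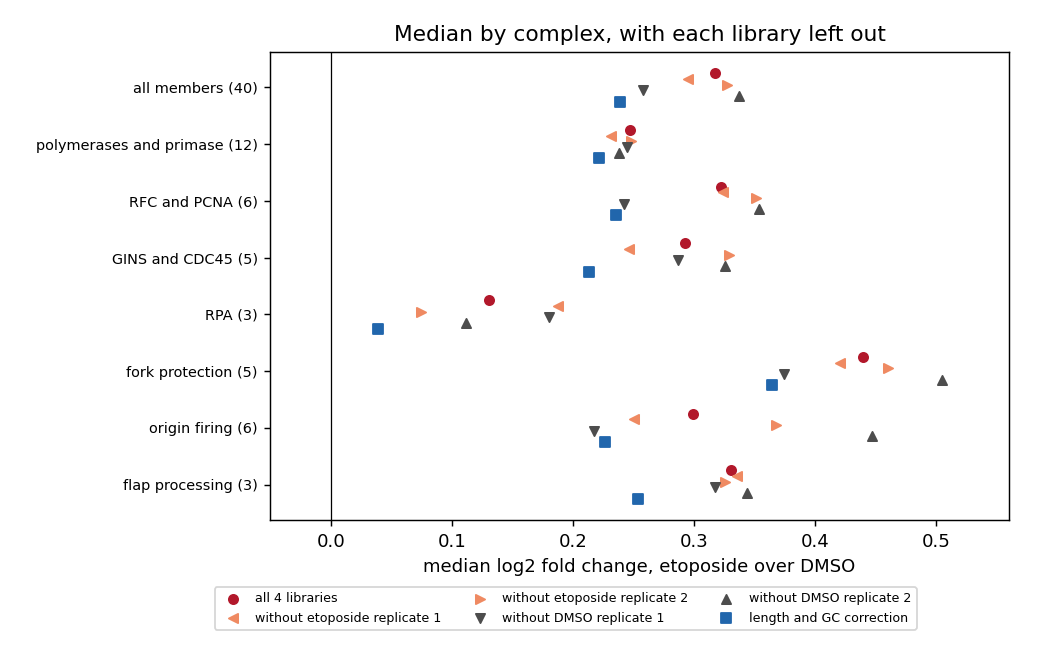
Median log2 fold change, etoposide over DMSO (horizontal axis), of all 40 members and of each complex (number of genes in brackets), with all 4 libraries, without each library in turn and after the length and GC correction. Fork protection stands farthest right and RPA farthest left in each setting, and medians of the other 5 complexes overlap between settings.

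Other genes of DNA replication, in lists chosen with earlier results of these data known, were described in the same way. Of 17 MCM and licensing genes, 14 were above 0, with a median log2 fold change of 0.23, and 0 passed. CDT1, a licensing factor, had 7.35 and 7.27 FPKM in the etoposide libraries, against 4.93 and 4.75 in the DMSO libraries, and CDC6, which loads the MCM ring, had 10.8 and 10.7, against 6.66 and 7.47. Their log2 fold changes of 0.59 ± 0.09 and 0.60 ± 0.10 (adjusted p = 0.27 each by limma) lay near the top of the members' range. Of 9 genes of nucleotide supply, 8 were above 0 (median 0.33), among them CTPS1, which makes CTP, with 25.2 and 26.5 FPKM in etoposide against 19.5 and 20.3 in DMSO libraries, and TYMS, thymidylate synthase, with 74.5 and 81.3 against 57.8 and 62.5. All 5 genes of the other clamp loaders were above 0 (median 0.33). The clamp loader subunit DSCC1 had 15.2 and 14.5 FPKM in etoposide against 10.4 and 11.3 in DMSO libraries. CHTF8 had 31.97 and 33.9 against 27.5 and 24.7. The median of this list was 0.13 with voom on estimated fragments and 0.34 after the length and GC correction, where 4 were above 0. The log2 fold change of CHTF8, 0.33, was 0.06 with voom and −0.10 for its leading transcript, while that of DSCC1 was 0.46 in both. Of 10 genes of the E2F network, 9 were above 0 (median 0.27), and the phosphatase CDC25A had 11.8 and 10.8 FPKM in the etoposide libraries, against 7.14 and 7.77 in the DMSO libraries. CDK2, the kinase of S phase entry in the same list, had 24.8 and 25.4 against 18.9 and 19.3.

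The translesion and repair polymerases, 12 of 13 of which were tested, had a lower median than the replicative ones, 0.08, with 8 above 0, and one of 0.01 after the length and GC correction, 0.17 without DMSO replicate 2 and 0.15 with TPM. POLQ, the polymerase of microhomology-mediated end joining, had 7.21 and 7.25 FPKM in the etoposide libraries, against 3.65 and 5.38 in the DMSO libraries (0.69 ± 0.19, adjusted p = 0.34 by limma). POLK, a translesion polymerase, had 2.69 and 2.78 with etoposide, against 1.86 and 2.35 with DMSO. The difference between this list and the members was not tested. Genes of G2 and M phase lay mostly on the other side of 0. Of 24, 22 were below 0 (median −0.28), 16 had an unadjusted p under 0.05 and were lower, against 4.85% of all genes tested, and 0 passed the adjusted threshold. Without DMSO replicate 2, 8 of the 24 were above 0 and their median was −0.25, against −0.35 without DMSO replicate 1. KIF20A, a mitotic kinesin, had 18.3 and 17.3 FPKM in the etoposide libraries, against 28.8 and 31.5 in the DMSO libraries (−0.76 ± 0.09, adjusted p = 0.17). AURKA, a mitotic kinase, had 43.8 and 42.5, against 63.2 and 60.8 (−0.52 ± 0.07, adjusted p = 0.22). Summed FPKM of the G2 and M phase genes were 965 and 953 with etoposide, against 1171 and 1194 with DMSO, beside 768 and 767 against 637 and 651 for the members. The part of the cell-cycle phases in the members' difference was not tested.

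**Figure D5:**
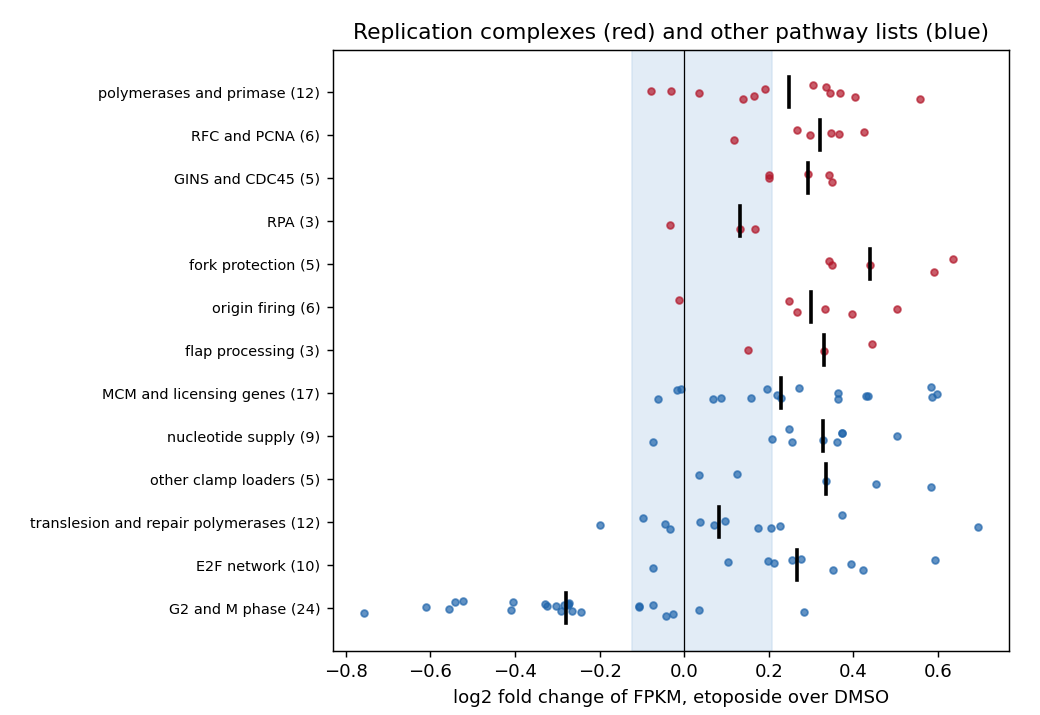
Log2 fold change of FPKM, etoposide over DMSO (horizontal axis), of each gene (points) in the 7 member complexes (red) and 6 other lists (blue), with the number of genes tested in brackets, the median of each list as a black bar and the range between the 25th and 75th percentiles of all genes shaded. Medians of the red lists run from 0.13 to 0.44, while the G2 and M phase genes have a median of −0.28.

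The libraries held the markers of the labelled cells. The 12 markers of serous ovarian carcinoma, PAX8, WT1, MUC16 and KRT7 among them, were each above 1 FPKM in the 4 libraries, and 10 of the 12 were below 0, with summed FPKM of 2145 and 2216 in etoposide, against 3069 and 2723 in DMSO libraries. Of 6 fibroblast markers, COL3A1, DCN and PDGFRA were under 0.04 FPKM and the summed level was 8.20 and 8.02 with etoposide, against 6.83 and 6.90 with DMSO. Most of that sum was COL1A1, with 6.11 and 5.79 FPKM in the etoposide libraries, against 4.36 and 4.42 in the DMSO libraries (0.43 ± 0.10, adjusted p = 0.30 by limma), and COL1A2, with 1.68 and 1.81 against 1.95 and 2.01. Their part in the members' difference was not tested. The 6 leukocyte markers summed to 1.30 and 1.38 with etoposide, against 1.82 and 1.47 with DMSO, and CD3E was listed at 0 in 1 DMSO library. The 4 endothelial markers summed to 5.16 and 5.06 with etoposide, against 4.41 and 5.61 with DMSO, mostly from KDR, with PECAM1 and CDH5 under 0.1 FPKM. The mapped bases behind the values equalled 47687126 and 58513480 read pairs in the etoposide libraries, against 64473397 and 66500749 in the DMSO libraries, so that the group with the higher members had the smaller libraries. Between 13482 and 13627 genes reached 1 FPKM per library. Pseudogenes named after members averaged at most 0.243 FPKM (DBF4P1), and 24 members shared exon bases with another gene, 19 of them with one on the opposite strand.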

How the data were processed

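Messenger RNA of 4 OVCAR3 libraries, 2 treated with etoposide and 2 with DMSO, was sequenced in pairs of 100 bases with a stranded kit. The authors aligned reads to GRCh38 with HISAT2, used SAMtools, and ran StringTie 2.1.7 on the Ensembl annotation (release 104), without a strand option. The deposited values of the authors are, for each transcript, a coverage per base, an FPKM, which depends on the depth of its library, and a TPM, whose total is equal in all libraries; no counts were among the files used here. The paper's account of its RNA methods speaks of transfected cells, which differs from the labels, and the labels were followed.

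FPKM were summed over the transcripts of 60605 genes. Of these, 22185 with a mean FPKM of at least 0.1 were fitted on log2(FPKM + 0.1) with limma 3.58.1 (R 4.3.3), with trended and robust variances, etoposide against DMSO, and Benjamini-Hochberg adjustment at 0.05. All members were fitted in this table. Transcripts were fitted likewise. Length and GC content were those of each gene's leading transcript, and their trend was removed with loess (span 0.3). Scripts were tested on simulated data. Figures used Python 3.11.15, pandas 2.3.3 and matplotlib 3.10.9.

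The members and lists were chosen with earlier results of these data known. Values in each library are given, per complex, for the 3 members with the smallest p, all members with a negative log2 fold change or overlapping groups, and PCNA, and for at most 2 genes of each other list. Outside this rule, POLA2, POLA1 and POLE (the last 2 for their promoters) and the markers COL1A1 and COL1A2 were added after their values were seen. Read pairs were inferred from FPKM and coverage at 200 bases a pair. Depth per gene was not given as counts, so that no counting interval was made. The alternatives were other pseudocounts, filters and scalings, TPM, leading transcripts, and length and GC corrections. Further ones were voom on fragments estimated from coverage and transcript length, a block for the replicate number, and dropping 1 library at a time. With the 2 pairs of numbers, the replicate differences of etoposide and DMSO had a correlation of 0.0133 across genes.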

Additional observations from a re-analysis of the deposited data

How the results depend on the processing

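The count of members above 0 was between 34 and 39 of 40, and the member median above 0, under each alternative. Under the alternatives that kept both libraries of each group, 0 members passed in either direction. With pseudocounts of 1 and 0.01 the medians moved by less than the replicate spread, except GINS and CDC45 at a pseudocount of 1 (0.27). A minimum mean FPKM of 1, no filter, and no trend or robust fitting could not move them. Each member averaged at least 4.33 FPKM, and these settings leave the fold change of a gene as it was. The replicate number as a block, for which the labels give no pairing, left 0 members passing and changed no call. In this balanced design a block cannot alter a fold change, so the median of 0.32 was fixed in advance.

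Scaling moved the medians. With TPM they were 0.39 for all members, 0.32 for polymerases and primase, 0.39 for RFC and PCNA, 0.36 for GINS and CDC45 and 0.40 for flap processing, and POLD4 (0.0345), RPA3 (0.034) and DBF4 (0.056) turned sign. Centring on the median log2 ratio gave 0.21 for polymerases and primase and 0.26 for GINS and CDC45. A length correction gave medians of 0.26 (all members), 0.17 (polymerases and primase), 0.24 (GINS and CDC45), 0.031 (RPA) and 0.35 (fork protection), and 5 genes passed as lower. With length and GC content removed they were 0.24 (all members), 0.22 (polymerases and primase), 0.24 (RFC and PCNA), 0.21 (GINS and CDC45), 0.039 (RPA) and 0.25 (flap processing), 6 genes passed as lower, and POLD4 was 0.024. Voom on estimated fragments gave 0.29 for polymerases and primase, 0.28 for GINS and CDC45, −0.023 for POLE4 and 0.19 for RPA3, with 1 gene passing as higher. With leading transcripts, 1 gene passed in each direction. The medians were 0.19 (polymerases and primase), 0.39 (RFC and PCNA), 0.26 (GINS and CDC45) and 0.22 (RPA). The log2 differences were 0.074 for POLD2, −0.11 for POLE4, 0.39 for RPA3 and −0.12 for LIG1. Those of POLD1 (−1.45) and TICRR (−0.23) also turned sign. The leading transcript of POLD1 held 30.0% of the gene's FPKM on average.

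Leaving out each library gave 3 to 1344 genes passing as higher and 2 to 590 as lower, and 0 to 16 members passing as higher. The medians ranged from 0.26 to 0.34 for all members, from 0.24 to 0.35 for RFC and PCNA, from 0.25 to 0.33 for GINS and CDC45 and from 0.22 to 0.45 for origin firing. The log2 differences of 5 members turned sign: they ranged from −0.18 to 0.018 for POLD2, from −0.31 to 0.25 for POLD4, from −0.064 to 0.14 for POLE4, from −0.25 to 0.18 for RPA3 and from −0.15 to 0.13 for DBF4. The length and GC correction without DMSO replicate 1 was chosen after seeing the data. It gave medians of 0.21 (all members and RFC and PCNA), 0.25 (GINS and CDC45), 0.33 (fork protection) and 0.24 (flap processing). The log2 differences were 0.015 for POLD2, 0.24 for POLD4 and 0.14 for RPA3. The cause of these shifts was not tested. The deposited values carry no counts, so that the part of counting error in each difference was not separated from the spread between libraries.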
